A study of Mus musculus with 11 samples.

Results

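The 10 genes described here encode extracellular and cell-surface modulators of Wnt and BMP signalling and were grouped as secreted Wnt and BMP antagonists: Sfrp1, Sfrp2, Sfrp5, Frzb, Wif1, Sostdc1, Dkk3, Notum, Apcdd1 and Olfml2a. They are 10 of the 49671 genes in the count table and were chosen by name with their levels in these libraries already known, so their levels and differences are given as a description and without a test. RNA was sequenced from sorted adrenal cells of male mice of the Nes-GFP strain, which carry a green fluorescent protein (GFP) reporter for Nestin; Nestin is an intermediate filament protein found in progenitor cells. Tissue of 6 mice was pooled in 3 groups of 2 mice, with cortex and medulla separated by dissection, and GFP-positive and GFP-negative cells were sorted from each in tubes of 180 to 300 cells. All animals carried the reporter, and the labels name no treatment beyond perfusion with buffered saline.

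The cortical GFP-positive and cortical GFP-negative groups had 3 libraries each, of which libraries 1 and 2 came from mice of about 3.5 months and library 3 from mice of about 2.5 months. The medullary GFP-positive group had 3 libraries, library 1 at about 3.5 months and libraries 2 and 3 at about 2.5 months. The medullary GFP-negative group had 2 libraries, both at about 3.5 months, so age and gate are partly confounded in the medulla. Age is also partly confounded with tissue within each gate. The labels tie no library to a pool or a mouse, gates can share animals, and p-values therefore measure only the spread between these libraries, part of which may be technical. If each library came from 1 pool and each pool held mice of 1 age, 3 pools at 2 ages leave 1 age with only 1 pool. At least 1 group then holds libraries that share a pool. The n given with SDs below counts libraries, not pools or mice. In bulk samples such as these, fewer cells of a type and less RNA per cell cannot be told apart.

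Wnt proteins are secreted ligands that bind Frizzled receptors with the co-receptors Lrp5 and Lrp6 and stabilise beta-catenin, and BMP proteins bind receptor kinases that phosphorylate Smad proteins. Secreted antagonists limit both: the secreted Frizzled-related proteins and Wif1 bind Wnt ligands, Sostdc1 binds BMP ligands and Lrp co-receptors, and Notum removes the lipid that Wnt ligands need for binding. In the adrenal cortex, beta-catenin signalling is known to be active in the outermost zone, the zona glomerulosa, and Wnt4 is one of its ligands there. Not every member fits the name of the group. Apcdd1 is a membrane-bound inhibitor of Wnt and BMP signalling, Dkk3 is a divergent member of the Dickkopf family whose action on Wnt signalling is less settled, and Olfml2a is an olfactomedin-domain protein of the extracellular matrix that is not established as an antagonist of either pathway.

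The promoters of 4 members are shown because 3 of them, Sfrp5, Olfml2a and Frzb, had their highest mean level in medullary GFP-positive cells while Wif1 had no count there. Each is the RefSeq window of GRCm38.p6 (mm10) from 250 bases before to 50 bases after the gene's start, written 5′ to 3′ on the gene's strand. The windows are chr19:42202203-42202502 on the minus strand for Sfrp5, chr2:38931730-38932029 on the plus strand for Olfml2a, chr2:80447347-80447646 on the minus strand for Frzb and chr10:121033754-121034053 on the plus strand for Wif1. Capitals mark a match to CTTTGA or its reverse complement TCAAAG, a short form of the motif bound by TCF/LEF factors of the Wnt pathway. The gene coordinates given below for Frzb end at 80447625. By those, most of its window, with its match, lies inside the gene.
Sfrp5: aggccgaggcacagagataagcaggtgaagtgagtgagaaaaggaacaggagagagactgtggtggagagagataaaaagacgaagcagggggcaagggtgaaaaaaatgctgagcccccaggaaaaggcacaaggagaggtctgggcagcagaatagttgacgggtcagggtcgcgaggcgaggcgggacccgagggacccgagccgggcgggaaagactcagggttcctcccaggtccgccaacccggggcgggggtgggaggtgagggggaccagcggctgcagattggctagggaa
Olfml2a: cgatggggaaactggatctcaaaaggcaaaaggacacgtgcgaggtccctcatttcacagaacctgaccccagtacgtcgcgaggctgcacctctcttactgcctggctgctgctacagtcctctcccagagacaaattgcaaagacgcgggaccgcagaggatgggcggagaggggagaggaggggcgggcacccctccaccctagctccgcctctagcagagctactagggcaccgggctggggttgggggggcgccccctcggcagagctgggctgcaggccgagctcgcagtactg
Frzb: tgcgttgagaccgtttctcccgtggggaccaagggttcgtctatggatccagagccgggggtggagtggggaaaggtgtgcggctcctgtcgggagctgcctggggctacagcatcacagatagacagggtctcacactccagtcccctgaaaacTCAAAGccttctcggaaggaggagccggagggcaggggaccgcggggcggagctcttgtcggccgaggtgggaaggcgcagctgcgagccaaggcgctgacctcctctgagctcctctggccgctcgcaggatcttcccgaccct
Wif1: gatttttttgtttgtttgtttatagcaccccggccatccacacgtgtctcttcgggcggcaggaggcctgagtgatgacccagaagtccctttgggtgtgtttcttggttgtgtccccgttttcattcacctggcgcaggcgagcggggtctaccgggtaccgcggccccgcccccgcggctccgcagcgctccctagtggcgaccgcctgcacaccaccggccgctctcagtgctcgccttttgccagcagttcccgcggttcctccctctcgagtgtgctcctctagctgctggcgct
Of the 5 members with a window in the RefSeq table (these 4 and Sfrp2, at chr3:83766071-83766370 on the plus strand), 1 held the TCF/LEF-like motif, Frzb, against 16.0% of all 32851 windows. None of the 5 held ACAAAG or its reverse complement CTTTGT, a short SOX-like motif found in 18.7% of windows. None held AAGGTCA or its reverse complement TGACCTT, resembling the site of the steroidogenic factor Nr5a1, which 4.72% of windows held. All matches were sought on both strands, the TCF/LEF-like and SOX-like motifs share the letters CTTTG, and a match or its absence describes only these letters. The 5 windows were rich in G and C, between 61.3% and 66.0% against a median of 52.7% over all windows, and held 15 to 25 CG dinucleotides against a median of 7.

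Total counts per library ranged from 18500690 to 29204212, and 3 counts, the floor used here, were worth 0.104 to 0.157 CPM (counts scaled to a common library size after TMM normalization). The mRNA of Nes, the gene behind the reporter, lay at 35.3 to 50.9 CPM in cortical GFP-positive and 4.59 to 7.44 CPM in cortical GFP-negative libraries, and at 69.2 to 178 CPM in medullary GFP-positive and 16.1 to 26.1 CPM in medullary GFP-negative libraries, so the gates did not overlap within either tissue. The summed level of 7 chromaffin cell markers was 4913 to 9097 CPM in the 5 medullary libraries and at most 0.236 CPM in cortical GFP-negative libraries, where 4 of the 7 had no count. It was 3.14 to 96.5 CPM in cortical GFP-positive libraries. Cortical markers were present in both dissections: the 6 zona glomerulosa markers summed to 2232 and 3840 CPM in medullary GFP-negative libraries, and 6 markers of steroid cells to 12020 to 25744 CPM in medullary GFP-positive libraries.

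Of the 10 members, 9 passed the filter on low counts and Sfrp2 did not. By group mean, 1 set of members was highest in medullary GFP-positive cells (Sfrp1, Sfrp5, Sostdc1, Olfml2a and, with 1 high library, Frzb). Another set had its highest mean in cortical GFP-negative cells (Dkk3, Wif1, Apcdd1 and Notum). Of that set, Dkk3, Wif1 and Notum overlapped with medullary GFP-negative cells and Apcdd1 did not. Sfrp2, highest in medullary GFP-negative cells, is in neither set. In the cortex, 2 of the 9 were higher and 4 lower in GFP-positive cells without overlap of the libraries, where 18.8% and 19.4% of all 20893 genes tested were. In the medulla, 5 were higher and 2 lower without overlap, where 25.6% and 22.5% of all genes were. Between GFP-positive cells of the tissues, 1 was higher and 5 lower in the cortex without overlap, against 16.0% and 18.5% of all genes. Between GFP-negative cells, 2 were higher and 0 lower in the cortex, against 23.4% and 26.1%. The members were chosen for these levels and passed the filter through the groups where they are high, so nothing is read from these counts. The comparisons share groups of libraries and are given side by side.

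**Figure D1:**
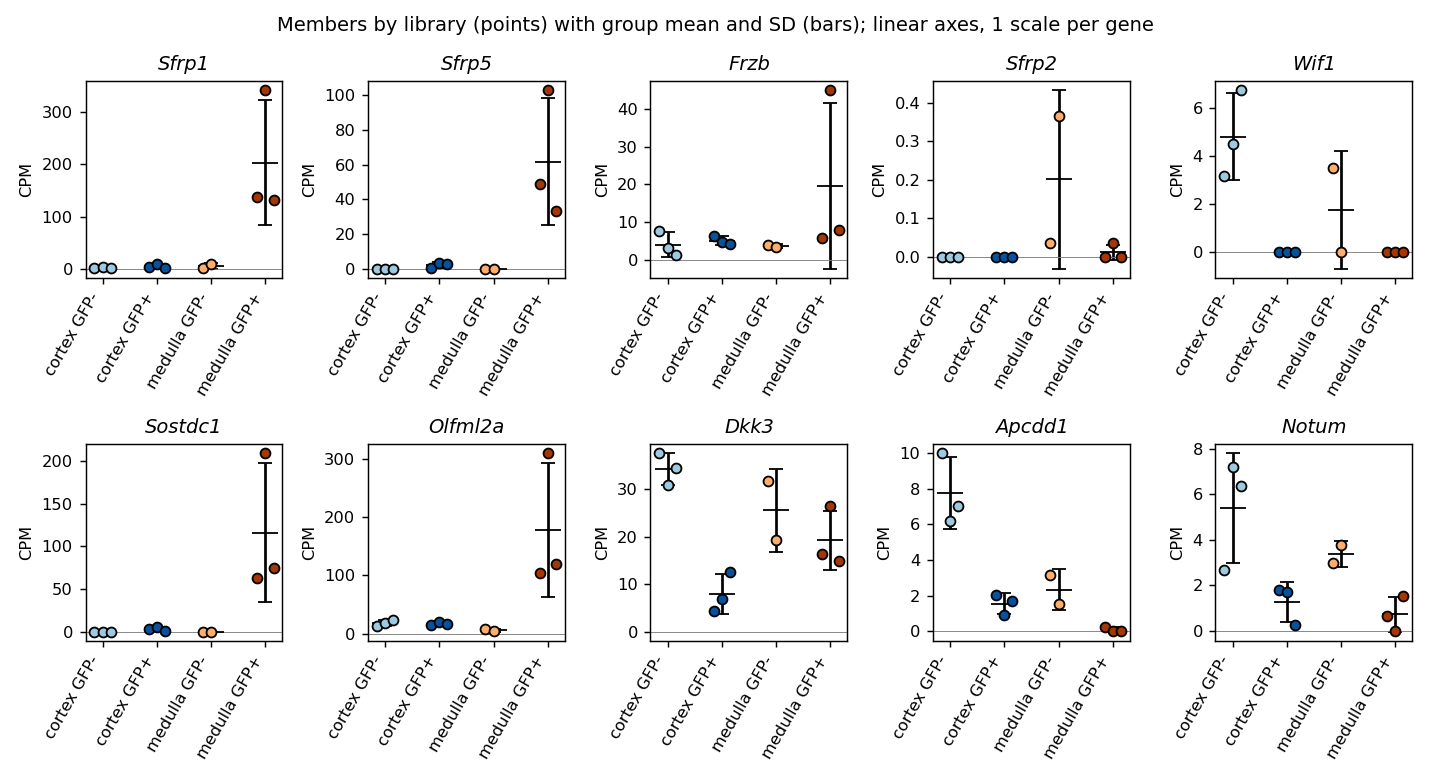
Level of each of the 10 members in CPM (y axis, linear, with its own range per gene) by group (x axis); points are libraries, and the horizontal mark and bar are the group mean and SD. Sfrp1, Sfrp5, Sostdc1 and Olfml2a stand high in the 3 medullary GFP-positive libraries, and Dkk3, Wif1, Apcdd1 and Notum reach their highest group mean in cortical GFP-negative cells.

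The secreted Frizzled-related proteins carry a cysteine-rich domain like that of Frizzled receptors, through which they bind Wnt ligands. Sfrp1 (ENSMUSG00000031548, mm10 chr8:23411502-23449632, plus strand) lay at 137, 341 and 131 CPM in medullary GFP-positive libraries 1 to 3. It lay at 2.30 and 10.6 CPM in the medullary GFP-negative libraries. In the cortex it lay at 3.83, 9.36 and 2.70 CPM in GFP-positive and 1.75, 3.56 and 2.05 CPM in GFP-negative libraries. Every medullary GFP-positive library was above all 8 others, and the remaining 3 groups overlapped with their neighbours in the order of means. The medullary mean was 31.6-fold higher in GFP-positive cells (202.9 ± 120 against 6.43 ± 5.84 CPM, SD, n = 3 and 2), a fitted log2 difference of 4.98 (SE 0.846). That difference was 6.46 without medullary GFP-negative library 2, 4.27 without library 1 of that group and 4.39 without medullary GFP-positive library 2. Between GFP-positive cells the medulla was 38.3-fold above the cortex. In the cortex the gates overlapped, with a log2 difference of 1.11 (SE 0.662).

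Sfrp5 (ENSMUSG00000018822, chr19:42197971-42202252, minus strand) had no count in any of the 5 GFP-negative libraries. It lay at 48.6, 103 and 33.3 CPM in medullary GFP-positive libraries. Cortical GFP-positive libraries held 0.356, 3.56 and 2.93 CPM. The GFP-positive groups did not overlap with each other or with the GFP-negative groups. With 3 counts over a GFP-negative group as the floor, the mean was at least 1068-fold higher in GFP-positive cells of the medulla and at least 60.4-fold higher in those of the cortex. Both bounds are limited by the depth of the GFP-negative libraries. They differ from each other mainly through the GFP-positive means, 61.6 CPM in the medulla and 2.28 CPM in the cortex. The medullary GFP-positive mean was 27.0-fold above the cortical one.

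Frzb, also called Sfrp3 (ENSMUSG00000027004, chr2:80411970-80447625, minus strand), differed less between groups. It lay at 5.78, 45.1 and 8.04 CPM in medullary GFP-positive and at 4.05 and 3.33 CPM in medullary GFP-negative libraries. Cortical libraries held 6.41, 4.64 and 4.14 CPM in GFP-positive and 7.62, 3.08 and 1.26 CPM in GFP-negative cells. The 2 medullary groups did not overlap, but their log2 difference of 2.41 (SE 0.959) fell to 0.90 without medullary GFP-positive library 2. All neighbours in the order of the 4 group means overlapped. Sfrp2 (ENSMUSG00000027996, chr3:83766321-83774316, plus strand) had no count in the 6 cortical libraries and 11 counts in all, of which 10 were in medullary GFP-negative libraries (0.0365 and 0.366 CPM) and 1 in medullary GFP-positive cells. The ratio of pooled CPM between the medullary gates was 12.9, with an exact 95% counting interval of 1.84 to 562 that covers counting error only.

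Wif1 (ENSMUSG00000020218, chr10:121033960-121100650, plus strand) binds Wnt ligands through its WIF domain. It had no count in any of the 6 GFP-positive libraries. Cortical GFP-negative libraries held 3.17, 4.52 and 6.77 CPM, and the medullary GFP-negative libraries 3.51 and 0 CPM. In the cortex the gates did not overlap, and the GFP-positive mean was at least 109-fold lower, with 3 counts over that group as the floor. In the medulla the bound of at least 39.3-fold lower rests on GFP-negative library 1, since library 2 also had no count.

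Sostdc1 (ENSMUSG00000036169, chr12:36314169-36318452, plus strand), also called ectodin or USAG-1, is known as an antagonist of both BMP ligands and Lrp-mediated Wnt signalling. It had no count in the 5 GFP-negative libraries. It lay at 62.8, 210.1 and 75.1 CPM in medullary GFP-positive libraries, and at 2.98, 5.37 and 0.811 CPM in cortical ones. As for Sfrp5, these groups did not overlap apart from the pair without counts. Relative to the GFP-negative gate, the mean was at least 2010-fold higher in the medulla, at least 80.9-fold higher in the cortex, and 38.0-fold higher in GFP-positive cells of the medulla than of the cortex.

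Olfml2a (ENSMUSG00000046618, chr2:38931978-38963753, plus strand) shared the high level in medullary GFP-positive cells, at 104, 312 and 120 CPM, against 7.74 and 3.98 CPM in medullary GFP-negative libraries. In the cortex it lay at 13.9, 19.7 and 17.2 CPM in GFP-positive and at 12.9, 17.6 and 23.2 CPM in GFP-negative libraries. The cortical gates overlapped, with a log2 difference of -0.08 (SE 0.421), while the medullary ones differed 30.4-fold without overlap, a log2 difference of 4.92 (SE 0.588) that was 4.25 without medullary GFP-positive library 2. The cortical minus the medullary difference was -5.00 on the log2 scale (SE 0.690). GFP-negative cells also stood apart between tissues, at a mean 3.05-fold higher in the cortex, with no library of one tissue inside the range of the other.

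Dkk3 (ENSMUSG00000030772, chr7:112116017-112159057, minus strand) was present in every library. It lay at 37.6, 30.8 and 34.3 CPM in cortical GFP-negative and at 4.41, 6.96 and 12.6 CPM in cortical GFP-positive libraries. Medullary libraries held 31.7 and 19.3 CPM in GFP-negative and 16.4, 26.4 and 14.8 CPM in GFP-positive cells. The cortical gates did not overlap, with a mean 4.29-fold lower in GFP-positive cells (7.98 ± 4.17 against 34.2 ± 3.38 CPM, SD, n = 3 each), a log2 difference of -2.10 (SE 0.386). The medullary gates overlapped, with a log2 difference of -0.41 (SE 0.409). Cortical GFP-positive cells were the low group, below every library of the other 3 groups.

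Notum (ENSMUSG00000042988, chr11:120653788-120661175, minus strand) is a secreted carboxylesterase that deacylates Wnt ligands and is itself a known target of Wnt signalling. It lay at 2.65, 7.20 and 6.38 CPM in cortical GFP-negative and 1.78, 1.72 and 0.225 CPM in cortical GFP-positive libraries. The medulla held 2.96 and 3.78 CPM in GFP-negative and 0.619, 0 and 1.51 CPM in GFP-positive libraries. GFP-positive cells were below GFP-negative cells without overlap in both tissues, 4.36-fold in the cortex and 4.74-fold in the medulla, on 41 to 429 counts per group. The log2 differences of -2.12 (SE 1.12) and -2.26 (SE 1.22) had wide errors, and the medullary one was -3.49 without medullary GFP-positive library 3. The tissues overlapped within each gate.

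Apcdd1 (ENSMUSG00000071847, mm10 chromosome 18 from 62922327 to 62953195, plus strand), also a known Wnt target, lay at 10.0, 6.17 and 7.05 CPM in cortical GFP-negative and 2.05, 0.902 and 1.71 CPM in cortical GFP-positive libraries. It lay at 3.14 and 1.54 CPM in medullary GFP-negative and 0.258, 0.0348 and 0.0522 CPM in medullary GFP-positive libraries. The latter rest on 7 counts in all. Groups did not overlap in any of the 4 comparisons. The mean was 4.98-fold lower in GFP-positive cells of the cortex and 20.4-fold lower in those of the medulla, and it was 13.5-fold higher in GFP-positive and 3.30-fold higher in GFP-negative cells of the cortex than of the medulla. The medullary log2 difference of -4.35 (SE 0.757) was -5.63 without medullary GFP-positive library 1. In the order of the means, medullary GFP-negative and cortical GFP-positive cells were the only neighbours that overlapped.

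**Figure D2:**
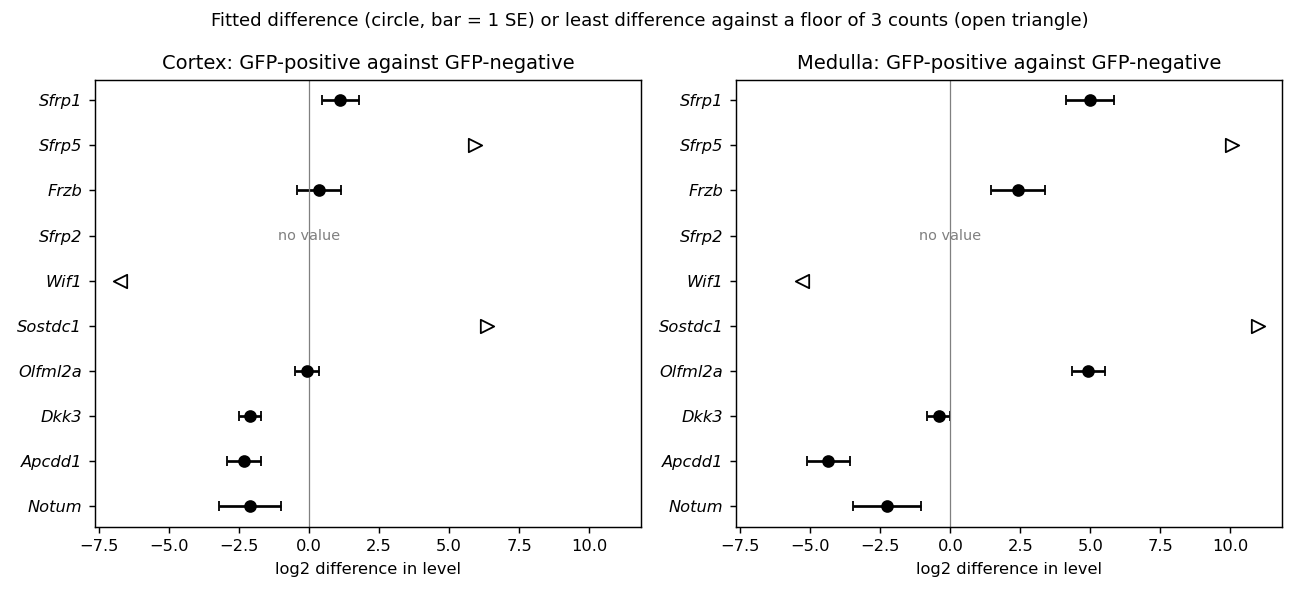
Difference between GFP-positive and GFP-negative cells for each member in the cortex (left) and the medulla (right), on the log2 scale (x axis; right of 0, higher in GFP-positive cells). Circles with bars are fitted differences with 1 SE, open triangles are least differences for genes with no count in 1 gate, and no value could be fitted for Sfrp2; Olfml2a sits at -0.08 in the cortex and 4.92 in the medulla.

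The plot of gate differences sets both tissues side by side. Apcdd1 and Notum were lower and Sfrp5 and Sostdc1 higher in GFP-positive cells of both tissues without overlap, and Dkk3 and Wif1 had lower means in both with an overlap of the gates in the medulla. The cortical minus the medullary log2 difference was -3.88 for Sfrp1 (SE 0.996), -1.69 for Dkk3 (SE 0.565), 2.04 for Apcdd1 (SE 0.936) and 0.14 for Notum (SE 1.59), given here as a description. Within the older mice of the medulla, GFP-positive library 1 can be set against both GFP-negative libraries: Sfrp1 was at 137 against 2.30 and 10.6 CPM, Olfml2a at 104 against 7.74 and 3.98 CPM, and Sfrp5 and Sostdc1 at 48.6 and 62.8 CPM against 0 in both. Among the younger mice of the cortex, with 1 library a gate, Dkk3 was at 12.6 CPM in GFP-positive against 34.3 CPM in GFP-negative cells.

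Levels of different genes were compared per kilobase of the length in the authors' table. In medullary GFP-positive cells the means were 66.2 CPM per kilobase for Sostdc1, 46.4 for Sfrp1, 32.4 for Sfrp5 and 32.0 for Olfml2a, then 6.07 for Frzb and 5.71 for Dkk3, with SDs of 46.7, 27.4, 19.3, 20.7, 6.82 and 1.87, and at most 0.295 for the other 4. In cortical GFP-negative cells Dkk3 led with 10.2 CPM per kilobase, followed by Olfml2a at 3.20, Apcdd1 at 2.77, Notum at 2.25 and Wif1 at 1.99. In cortical GFP-positive cells Olfml2a was at 3.03, Dkk3 at 2.38, Sostdc1 at 1.74, Frzb at 1.56, Sfrp1 at 1.21 and Sfrp5 at 1.20 CPM per kilobase.

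Over the 11 libraries, Pearson's r of log2(CPM + 1) was 0.974 between Sfrp5 and Sostdc1, 0.956 between Sfrp1 and Sostdc1 and 0.929 between Sfrp5 and Olfml2a. It was 0.848 between Wif1 and Apcdd1, 0.746 between Wif1 and Notum and 0.728 between Apcdd1 and Notum. Dkk3 had r of 0.718 with Wif1, 0.466 with Apcdd1 and 0.363 with Notum, and between -0.22 and 0.02 with Sfrp1, Sfrp5, Sostdc1, Frzb and Olfml2a. Between those 5 genes and Wif1, Apcdd1 and Notum r was negative, down to -0.86 between Sfrp1 and Apcdd1. These values describe levels across the 4 groups, every pair of genes is taken over the same 11 libraries, and no test was made. The genes with the nearest pattern among 13314 were sought for the 8 members with a mean of at least 5 CPM in some group. They included 1700019D03Rik (r = 0.982) and Vim for Sfrp1, and were Col28a1 (0.991), Slc35f1 and Gfra1 for Sfrp5, and Sox2 (0.995), Gfra1 and Fxyd7 for Sostdc1. For Olfml2a they were Col18a1 (0.986), Gpt2 and Kif21a, and for Frzb Selenow (0.937), Dync1i2 and Mafk. For Apcdd1 they were Car2 (0.987), Rbfa and Lrrc8d, for Notum Gm6524 (0.949), Kank3 and Ddb2, and for Dkk3 Mis12 (0.973), Lxn and Trib2. These names depend on the measure: with Spearman's rho, or with 0.1 added in place of 1, none of the 3 stayed for Sfrp5 or Sostdc1, while Selenow stayed for Frzb and Gm6524 for Notum under both.

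In the groups where the 2 sets of members had their highest means, the markers of 2 cell types had sums above every other library. These are Schwann cells and the zona glomerulosa. Chromaffin, fibroblast and pericyte markers also reached their highest sums in medullary GFP-positive cells (9097, 381 and 265 CPM), but with overlap of another group. Not every member followed the first 2: Dkk3 overlapped between the medullary gates, where the zona glomerulosa sum did not. Olfml2a overlapped between the cortical gates, where the Schwann cell sum did not. The summed level of 10 Schwann cell and glial markers, among them Sox10 and Erbb3, was 2001 to 4740 CPM in medullary GFP-positive, 199.9 to 295 CPM in cortical GFP-positive, 19.7 to 28.1 CPM in medullary GFP-negative and 4.17 to 12.2 CPM in cortical GFP-negative libraries. Of these markers 8 of 10 were called higher in GFP-positive cells of the cortex and 9 of 10 in those of the medulla, and 9 of 10 were called lower in GFP-positive cells of the cortex than of the medulla (edgeR, adjusted p under 0.05). Over all genes, 14.7%, 21.4% and 15.5% were called in either direction in these comparisons. Sox10 and Foxd3, defining genes of neural crest glia, had no count in the medullary GFP-negative libraries. Medullary GFP-positive library 2, which had the highest Sfrp1, Sfrp5, Sostdc1, Olfml2a and Frzb, also had the highest Schwann cell sum. The same library had the highest fibroblast and capsule sum (381 CPM) and the highest pericyte and smooth muscle sum (265 CPM). It also had the highest Nes (178 CPM).

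Per 1000 CPM of the Schwann cell sum, Olfml2a lay at 51.8, 65.7 and 52.7 CPM in medullary and 69.5, 66.7 and 75.2 CPM in cortical GFP-positive libraries. Sfrp1 lay at 68.5, 71.9 and 57.4 CPM per 1000 in medullary and 19.2, 31.7 and 11.8 in cortical GFP-positive libraries. Sostdc1 lay at 31.4, 44.3 and 33.0 against 14.9, 18.2 and 3.55, and Sfrp5 at 24.3, 21.7 and 14.6 against 1.78, 12.1 and 12.8. Among GFP-positive libraries on this scale, the medullary ones stayed above the cortical ones for Sfrp1, Sostdc1 and Sfrp5, and below them for Olfml2a. GFP-negative libraries are not given on this scale. In cortical GFP-negative libraries 1 to 3 the Schwann cell sum was 4.59, 12.2 and 4.17 CPM. Olfml2a lay above that sum there, at 12.9, 17.6 and 23.2 CPM. Sfrp1 lay at 1.75, 3.56 and 2.05 CPM in those libraries, and Sfrp5 and Sostdc1 had no count. The share of Schwann cells was not measured, and its part in these differences was not tested.

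The sum of the 6 zona glomerulosa markers, among them the aldosterone synthase gene Cyp11b2, was 5939 to 7524 CPM in cortical GFP-negative, 1376 to 1993 CPM in cortical GFP-positive, 2232 and 3840 CPM in medullary GFP-negative and 139 to 236 CPM in medullary GFP-positive libraries. In GFP-positive cells 4 of the 6 were called lower in the cortex and 6 of 6 in the medulla. Of all genes, 14.7% and 21.4% were called there in either direction. Per 1000 CPM of this sum, Apcdd1 lay at 1.33, 1.04 and 1.17 CPM in cortical GFP-negative, 1.03, 0.591 and 1.24 CPM in cortical GFP-positive and 0.818 and 0.692 CPM in medullary GFP-negative libraries. Dkk3 lay at 5.00, 5.19 and 5.71 CPM per 1000 in cortical GFP-negative, 2.21, 4.56 and 9.13 in cortical GFP-positive and 86.3 to 118 in medullary GFP-positive libraries. Wif1 had no count in cortical GFP-positive libraries although the sum there was 1376 to 1993 CPM. The part of these cells in the differences was not tested.

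Macrophage markers also differed between the gates: 6 of them summed to 913 to 1501 CPM in cortical and 5115 and 5134 CPM in medullary GFP-negative libraries, and to 23.9 to 83.7 and 97.9 to 232 CPM in the GFP-positive libraries of cortex and medulla. The 8 pericyte and smooth muscle markers summed to 59.7 to 226 CPM in cortical GFP-positive and 1.97 to 6.24 CPM in cortical GFP-negative libraries, but overlapped between the medullary gates (110 to 265 CPM in GFP-positive, 133 and 146 CPM in GFP-negative libraries). The sum of the 6 steroid cell markers was higher in GFP-positive libraries of both tissues without overlap. It was 35378 to 46169 against 14619 to 16007 CPM in the cortex and 12020 to 25744 against 3669 and 7017 CPM in the medulla. By gene, 2 of the 6 were called higher and 1 lower in GFP-positive cells of the cortex. In the medulla 3 were called higher and 1 lower. Of all genes, 14.7% in the cortex and 21.4% in the medulla were called in either direction. The 10 fibroblast and capsule markers (74.8 to 381 CPM over all libraries) and the 6 endothelial markers (56.3 to 604 CPM) were present in every group. The part of these cells was not tested either.

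**Figure D3:**
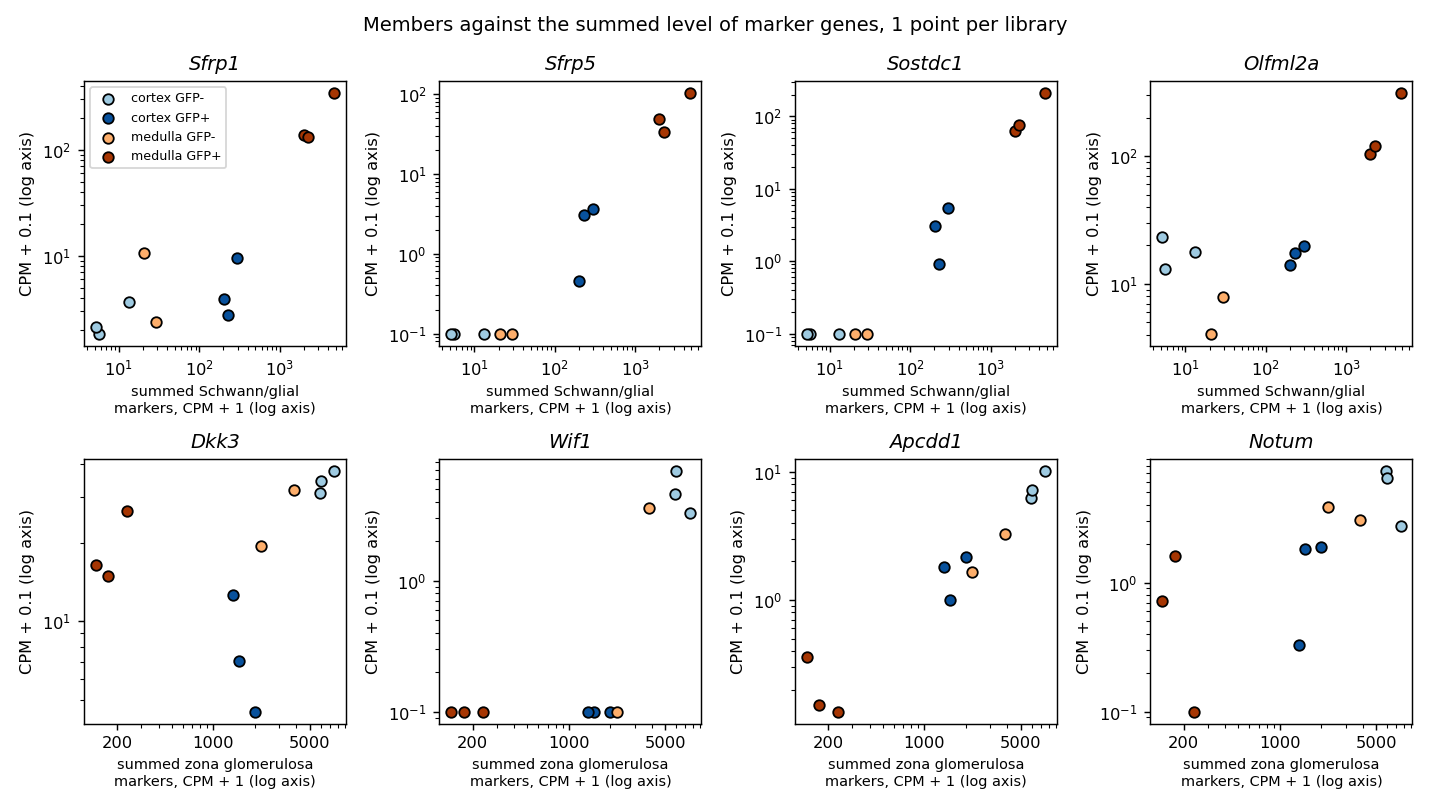
Level of 4 members against the summed Schwann cell and glial markers (upper row) and of 4 against the summed zona glomerulosa markers (lower row), 1 point per library, coloured by group; both axes are in CPM and logarithmic, with 1 added on x and 0.1 on y. Medullary GFP-positive libraries lie at the upper right for Sfrp1, Sfrp5, Sostdc1 and Olfml2a, and at the left for Dkk3, Wif1, Apcdd1 and Notum.

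Other genes of the pathways were counted in 9 lists that hold no member, 127 genes of which 93 were tested. These lists too were chosen with earlier results of these data known. Their shares of calls are therefore given as a description beside those of all genes, and nothing is read from an excess. In the cortex 16 were called higher and 6 lower in GFP-positive cells (edgeR quasi-likelihood test, adjusted p under 0.05), 23.7% of those tested, against 14.7% of all genes. Their median log2 difference was 0.22, against 0.03 over all genes. Among BMP antagonists, 4 of 12 tested were higher and none lower: Fstl3, a follistatin-like binder of activins, rose from 1.98 ± 0.425 in GFP-negative to 21.8 ± 9.76 CPM (SD, n = 3 each; log2 difference 3.46, edgeR adjusted p = 0.00238), and Chrd, which encodes the BMP-binding chordin, from 2.71 ± 1.50 to 17.0 ± 2.32 CPM (edgeR adjusted p = 0.0140). The others were Fstl1 at 68.6 against 11.5 CPM and Dand5, a member of the Dan family, at 18.1 against 11.2 CPM.

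Among Wnt ligands of the cortex, 2 of 10 were higher and 1 lower in GFP-positive cells. Wnt5a, a ligand known for signalling without beta-catenin, was at 90.8 ± 4.24 against 18.9 ± 3.01 CPM (edgeR adjusted p = 0.000313). Wnt4 was at 75.3 ± 37.2 against 253 ± 52.5 CPM (edgeR adjusted p = 0.00855). Of 16 receptors 5 were higher and none lower, among them the co-receptors Lrp6 (97.6 against 52.7 CPM) and Lrp5 (8.64 against 2.42 CPM), Fzd1 (13.3 against 3.38 CPM) and Ryk (63.8 against 36.0 CPM). Of 12 Wnt target and feedback genes none was higher and 3 were lower: Nkd1, an intracellular feedback inhibitor, at 30.7 ± 4.70 against 120 ± 30.2 CPM (edgeR adjusted p = 0.000797), Lef1, a transcription factor of the pathway, at 11.2 against 38.4 CPM, and the cyclin gene Ccnd1 at 33.4 against 142 CPM. The other 9 were not called, among them Axin2 at 15.3 against 12.2 CPM. The median log2 difference of the 12 was -0.75.

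On the BMP side of the cortex, Bmp7 was the 1 ligand of 7 called, at 136 ± 12.3 in GFP-positive against 13.8 ± 3.12 CPM in GFP-negative cells (edgeR adjusted p = 0.000163). The type I receptor gene Acvr1 (122 against 27.9 CPM) and the type II receptor gene Bmpr2 (107 against 55.3 CPM) were higher, and Acvrl1 (4.49 against 17.1 CPM) and Smad5 (38.6 against 64.6 CPM) lower. Of 9 BMP target genes, Smad6, an inhibitory Smad, was higher (5.04 against 1.13 CPM). Of the 19 genes named here by the naming rule in the cortex, 8 lost their call under at least 1 alternative: Dand5, Fzd1, Lrp5, Ryk, Ccnd1, Acvrl1, Smad5 and Smad6. The 22 pathway calls became 14 when library 3 of the cortical GFP-negative group was left out, and 13 when library 3 of the cortical GFP-positive group was.

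In the medulla 23 pathway genes were called higher and 7 lower in GFP-positive cells, 32.3% of the 93 tested against 21.4% of all genes, with a median log2 difference of 0.22 against 0.09 over all genes. Of 12 BMP antagonists 5 were higher and none lower, with Fstl3 at 76.4 ± 50.1 against 0.258 ± 0.210 CPM (SD, n = 3 and 2; log2 difference 8.21, edgeR adjusted p = 0.000162). Fstl1 (131 against 10.3 CPM), Chrd (15.6 against 1.61 CPM) and Tsku, which encodes the secreted protein tsukushi (10.7 against 0.780 CPM), were among them. Of 9 other Wnt antagonists 3 were higher, including Igfbp4 (341 against 43.3 CPM) and Shisa2, which retains Frizzled receptors inside the cell (8.49 against 0.347 CPM).

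Medullary Wnt ligands were called higher for 5 of 10, including Wnt5a (47.9 ± 16.0 against 3.59 ± 0.0840 CPM, edgeR adjusted p = 5.08e-05) and Wnt6 (14.5 against 1.30 CPM). Wnt4 was lower, at 10.4 ± 3.13 against 98.8 ± 24.3 CPM (edgeR adjusted p = 0.000383). Of 16 receptors 3 were higher, Fzd2 (6.95 against 0.571 CPM), Fzd1 (18.0 against 3.09 CPM) and Ryk (58.0 against 22.4 CPM). The receptor tyrosine kinase Ror2 was lower, with 1 count in GFP-positive against 2.67 and 8.73 CPM in GFP-negative libraries, a ratio of pooled CPM of 373 (exact 95% counting interval 66.4 to 14770.5). Lgr4, a receptor for R-spondins (97.9 against 34.1 CPM), and Porcn, the enzyme that acylates Wnt ligands (23.1 against 9.91 CPM), were higher.

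Of 12 Wnt target and feedback genes in the medulla, 4 were lower and none higher: Nkd1 at 2.24 ± 0.195 against 38.5 ± 14.8 CPM (edgeR adjusted p = 3.47e-05), Dact1 (0.615 against 7.91 CPM), Lef1 (5.55 against 16.8 CPM) and Myc (45.7 against 105 CPM). The other 8 were not called, among them Axin2 at 6.94 against 5.47 CPM. The median log2 difference of the 12 was -0.76. Bmp7 was again the 1 BMP ligand called, at 110 ± 36.9 against 5.23 ± 1.56 CPM (edgeR adjusted p = 6.77e-05). The receptors Bmpr1a (98.0 against 28.8 CPM), Acvr1 (82.1 against 29.1 CPM) and Bmpr2 (129 against 58.9 CPM) were higher, Acvrl1 (14.5 against 61.4 CPM) lower, and the BMP target Id3 higher (553 against 159.8 CPM). Of these 25 named genes 10 lost their call under at least 1 alternative: Shisa2, Igfbp4, Tsku, Chrd, Fzd1, Porcn, Dact1, Myc, Acvrl1 and Acvr1. The Schwann cell, zona glomerulosa, steroid cell and macrophage sums given above moved with the gate in both tissues, and their part in these calls was not tested.

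**Figure D4:**
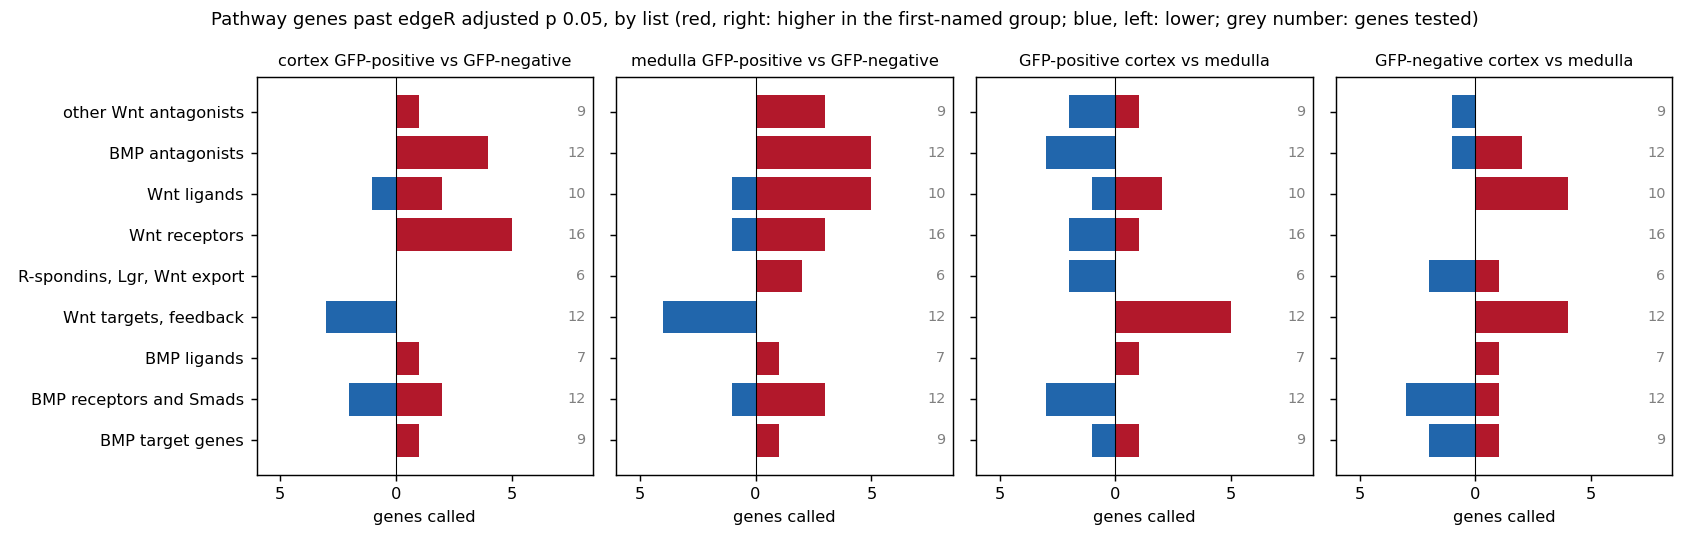
Number of pathway genes past an edgeR adjusted p of 0.05 (x axis) in each of 9 lists (y axis) for 4 comparisons; bars to the right are genes higher and bars to the left genes lower in the first-named group, and the grey number is the genes tested. Wnt target and feedback genes were called lower only (3 and 4 of 12) in GFP-positive cells of cortex and medulla, and BMP antagonists higher only (4 and 5 of 12).

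Between GFP-positive cells of the tissues, 11 pathway genes were higher and 14 lower in the cortex, 26.9% of those tested against 15.5% of all genes, with a median of -0.07 against -0.03. Of 12 Wnt target and feedback genes 5 were higher in the cortex and none lower, among them Nkd1 (30.7 against 2.24 CPM, edgeR adjusted p = 0.000174), Axin2 (15.3 against 6.94 CPM), Lef1 (11.2 against 5.55 CPM) and Tnfrsf19 (54.5 against 26.2 CPM). Wnt4 was also higher in the cortex (75.3 against 10.4 CPM), and Lgr5, a stem cell marker and R-spondin receptor, lower (7.41 against 52.3 CPM, edgeR adjusted p = 0.00750). Igfbp4 was lower (12.0 against 341 CPM), and Dkk2 was at 5.39 ± 5.10 CPM in the cortex with no count in the medulla, at least 121-fold higher. Id3 was lower (74.7 against 553 CPM) and Id2 higher (1679 against 937 CPM). Without cortical GFP-positive library 1, 2 or 3 or medullary GFP-positive library 2, the 25 calls became 15, 13, 14 and 11. With age as a term they became 18, with 11 higher and 7 lower in the cortex. Of the 21 named by the rule 13 lost their call under some alternative, of those given here Dkk2, Axin2 and Lef1.

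Between GFP-negative cells, 14 pathway genes were higher and 9 lower in the cortex, 24.7% of those tested against 18.6% of all genes, with a median of 0.26 (0.23 with genes without counts in a group at their bound) against -0.02. Of the Wnt target and feedback genes 4 of 12 were higher in the cortex and none lower: Nkd1 (120 against 38.5 CPM), Tnfrsf19 (73.8 against 22.6 CPM), Lef1 (38.4 against 16.8 CPM) and Axin2 (12.2 against 5.47 CPM). Wnt4 (253 against 98.8 CPM) and Wnt5a (18.9 against 3.59 CPM) were higher and Lgr5 lower (3.28 against 49.5 CPM, edgeR adjusted p = 0.00266). Without cortical GFP-negative library 1 or 2 or medullary GFP-negative library 2, the 23 calls became 10, 12 and 7. With age as a term they became 19, with 13 higher and 6 lower in the cortex. Of 19 named genes 14 lost their call under some alternative, of those given here Lef1, Axin2 and Wnt4.

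The gate difference itself was compared between tissues by the interaction of gate and tissue, where 4 of the 93 pathway genes were called, 4.30% against 1.61% of all genes. The cortical minus the medullary log2 difference was -4.76 for Fstl3, -1.48 for Bmpr1a, 2.13 for Nkd1 and 6.54 for Ror2. All 4 lost their call under at least 6 of the alternatives tried, and none was called with age as a term. The 4 calls became 0, 1 and 2 without cortical GFP-negative library 1, 2 or 3, 2 without cortical GFP-positive library 2 or 3, 7 without medullary GFP-negative library 1 and 1 without library 2 of that group.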

How the data were processed

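For all 11 libraries, raw counts per gene are as the authors deposited them. Per the submitters' processing notes, the tools were DESeq2 1.18.1, DESeq, featureCounts 1.6.0, GSNAP and bcl2fastq 2.19.1 on build mm10, with no roles given. Per the labels' protocols, cDNA was primed on the poly(A) tail and amplified in 17 cycles without molecular identifiers, so counting intervals and floors cover counting error only. The kit described marks no strand. The authors also deposited 3 tables of comparisons, used here for symbols, coordinates and gene lengths; their 17 normalized columns were not used.

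Of 49671 genes, 92 spike-in rows (10 counts in all) being left out, 34475 had a count. The authors' tables gave symbols for 25509 genes, a reference table gave 23915, and 247 had none. Titles gave each library's tissue and gate. The 11 libraries entered 1 fit with edgeR 4.0.16 in R 4.3.3 (filterByExpr by group, TMM, glmQLFit and glmQLFTest, 7 residual degrees of freedom), which left 20893 genes. P-values were adjusted after Benjamini and Hochberg over all of these, at 0.05. The common biological coefficient of variation was 0.479. CPM used TMM library sizes. For a group without counts, folds are bounds that set it at 3 counts in all.

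The members and the gene lists were chosen with earlier results of these data known. Members have no test. From each pathway list and comparison, up to 4 called genes with the largest difference were named, if the groups did not overlap and the higher mean reached 5 CPM. Nearest genes are the 3 with the highest r among tested genes reaching 5 CPM in some group; 1 of them is not reported here. Marker lists (8 lists, 59 genes) are given by their sums. The alternatives were DESeq2 1.42.0, limma 3.58.1 (voom), 2 other scalings, no filter, only the groups compared, a replicate block, age as a term and each library left out. The fit was tested on simulated data.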

Additional observations from a re-analysis of the deposited data

Results flagged for a closer look

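4 pathway genes stood out because the difference between GFP-positive and GFP-negative cells was itself different in cortex and medulla, by the interaction of gate and tissue (cortical minus medullary log2 difference, edgeR). Fstl3 was higher in GFP-positive cells of both tissues, and the interaction was -4.76 (edgeR adjusted p = 0.0359). GFP-positive libraries of Fstl3 held 31.4, 11.9 and 22.2 CPM in the cortex and 49.1, 134 and 45.8 CPM in the medulla, against 2.46, 1.84 and 1.65 CPM and 0.110 and 0.406 CPM in GFP-negative ones. For Ror2 the interaction was 6.54 (edgeR adjusted p = 0.0219), with 1 count of Ror2 in all medullary GFP-positive libraries. For Nkd1 it was 2.13 (edgeR adjusted p = 0.0286), with levels of 2.43, 2.26 and 2.04 CPM in medullary GFP-positive and 48.9 and 28.0 CPM in medullary GFP-negative libraries. For Bmpr1a it was -1.48 (edgeR adjusted p = 0.0358), with 62.1 ± 1.75 against 50.9 ± 9.32 CPM in the cortex and 98.0 ± 18.2 against 28.8 ± 6.00 CPM in the medulla (SD). Age as a term ended all 4 calls, limma voom those of Fstl3, Ror2 and Nkd1, and the replicate block those of Fstl3 and Nkd1.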

How the results depend on the processing

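No call reversed its direction under the alternatives tried; the uncalled difference of Frzb between GFP-negative cells of the tissues, 0.11, was -0.82 without cortical GFP-negative library 1. The interaction depended most on the setting: 337 genes were called, against 1560 with DESeq2, 176 with the replicate block and 93 with age as a term, and 4 pathway genes, against 13 with DESeq2, 1 with limma voom and 0 with age as a term. With a library left out, genes called ranged from 1959 to 3252 (main 3078) between the cortical gates, 2956 to 4390 (4461) between the medullary gates, 2006 to 3370 (3236) and 1411 to 4045 (3892) between tissues in GFP-positive and GFP-negative cells, and 56 to 489 in the interaction. Pathway genes called ranged from 13 to 24, 23 to 33, 11 to 26, 7 to 22 and 0 to 7 in the same order. The lowest counts over all genes came without cortical GFP-negative library 3 (1959), medullary GFP-negative library 2 (2956, 1411 and, in the interaction, 56) and medullary GFP-positive library 2 (2006). With total counts as the scale, the share of calls that were higher moved from 48.5% to 38.0% between the cortical gates, from 53.1% to 31.1% in the interaction, and from 43.2% to 52.7% between GFP-negative cells, and the median of all genes reached 0.15 between the medullary gates and -0.19 in the interaction. The numbers were not taken as pairs, since the labels tie none to a pool. Same-numbered libraries had r of deviations of -0.0085 to 0.0711 over 10 pairs. This cannot show whether gates share animals. Medullary GFP-positive library 2 differs in age from library 2 of the other groups, and the 2 medullary GFP-negative libraries mirror each other around their mean. Beyond the interaction, the replicate block moved no count of calls by over 1.5 times. Among members, the medullary log2 difference of Frzb was 0.90 without medullary GFP-positive library 2, and that of Notum -3.98 with limma voom; 41 of 665 values of member differences moved by more than the spread between libraries. Apcdd1 in medullary GFP-positive cells rests on 7 counts and Sfrp2 on 11 in all, and at this depth a gene without counts is below about 0.157 CPM in a library.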
